A study of Bos taurus with 11 samples.

Results

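The miR-26 family was examined in mammary gland tissue of lactating cows. Its members were taken by name, and 3 of the 796 miRNA rows in the count table carried one of the names bta-miR-26a, bta-miR-26b or bta-miR-26c. Biopsies came from 5 Holstein cows and 6 Montbéliarde cows, all in mid-lactation and on the same diet, with 1 small RNA library per cow. The cows carried no transgene or treatment, and breed was the only factor in the sample labels that separated the groups. The study gives lactation number and days in milk over all cows, not by breed. On average, its read cleaning kept a smaller share of the Montbéliarde reads than of the Holstein reads. Each library is named here by its breed and its tag, CNLX1, CNLX3, CNLX5, CNLX7 and CNLX9 for Holstein and CNLX13, CNLX15, CNLX17, CNLX19, CNLX21 and CNLX23 for Montbéliarde. The comparison asked whether the mammary miRNA content of the breeds differed. Because each library came from a different cow, the spread between libraries held both the differences between cows and those between preparations.

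MiRNAs are short RNAs that guide a silencing complex to complementary sites in mRNAs, which are then degraded or less translated, and miRNAs with the same seed, the stretch near the 5′ end that pairs first, share many targets. The miR-26 miRNAs are known from other species as abundant in differentiated tissues, where they restrain cell growth, and EZH2 and several regulators of the cell cycle are among their known targets. Their genes lie in introns of the CTDSP genes, which encode small phosphatases that act on the tail of RNA polymerase II and, like miR-26, restrain the cell cycle.

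In the RefSeq gene table for the ARS-UCD2.0 assembly, which is not the assembly used for the counts, all 4 genes of the family lay inside a CTDSP gene. MIR26A-1 lay inside CTDSPL, MIR26A-2 inside CTDSP2 and MIR26B inside CTDSP1. MIR26C, for which the table also lists the older name bta-mir-3603, occupied exactly the same interval as MIR26A-1, in the same host CTDSPL. Among the 1032 miRNA genes of that table, only 3 pairs shared an identical interval, and MIR26A-1 with MIR26C was 1 of them.

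The counts of miR-26a and miR-26c were tied in the same way. In each of the 11 libraries miR-26a had 2 times the count of miR-26c, to within a few reads. The remainder, the miR-26a count minus 2 times the miR-26c count, was 10, 4, 12, 6 and 7 reads in the Holstein libraries and 1, 9, 3, 1, 7 and 3 reads in the Montbéliarde libraries, in the order of the tags. Against 287219 to 1114238 counted miR-26a reads per library these remainders are negligible. The rows are therefore read as 1 measurement, and nothing in the counts separates miR-26c from miR-26a. Pairs of rows with counts in a constant ratio (within 0.1%) occurred 12 times in the table. How reads that match more than 1 miRNA or more than 1 gene were counted is not given in the sources used here, so the absolute level of miR-26a depends on a rule that is not known, whereas both rows give the same differences between libraries.

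Counted reads per library ran from 6087865 to 16808976, with a mean of 11795354 in Holstein and 8916419 in Montbéliarde (exact permutation test, two-sided, p = 0.110). Some reads were counted repeatedly, so these totals are sums of counts, and the shares given below are shares of those sums. At this depth counting error was small for all 3 rows. In Holstein library CNLX1, for example, the Wilson 95% interval of the miR-26a share ran from 6.10% to 6.13% of the counted reads. Such intervals take each count as a separate read and cover counting error alone, and the differences between cows were far larger.

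1 library stood apart from the rest. Among the 214 miRNAs with a mean normalized read count of at least 100, the median absolute deviation from the median library was 0.67 on the log2 scale in Montbéliarde CNLX15 and 0.16 to 0.39 in the other 10, and 65 of the 214 were off by at least 2-fold in it, against 1 to 17 in the others. Results that moved with CNLX15 are therefore also given without it.

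MiR-26a was among the most abundant miRNAs of the lactating gland. Its normalized read count, the count divided by a size factor per library, was 579010 in Holstein CNLX1, 651695 in CNLX3, 672328 in CNLX5, 517079 in CNLX7 and 461084 in CNLX9. In Montbéliarde it was 478694 in CNLX13, 1249505 in CNLX15, 570531 in CNLX17, 489769 in CNLX19, 589563 in CNLX21 and 470383 in CNLX23. The breeds overlapped over nearly their whole range, except that CNLX15 held 1.86 times the highest level of any other library. The Holstein mean was 576239 ± 89016 (SD, n = 5). The Montbéliarde mean was 641407 ± 302064 (SD, n = 6), or 519788 ± 55844 (SD, n = 5) without CNLX15.

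As a share of all counted reads, miR-26a took 4.72% to 6.63% in 10 libraries and 10.9% in CNLX15. It was the row of rank 6 by mean level, at rank 2 in CNLX15, rank 3 in CNLX21 and rank 5 or 6 in the other libraries. MiR-10b stood above it by 0.41 ± 0.35 on the log2 scale (SD over 11 libraries) and was higher in 9 of 11 libraries (exact sign-flip permutation test, adjusted p = 0.0195 over 10 pairs of neighbours). MiR-148d, directly above, was higher in 8 of 11 libraries, but its mean difference of 0.024 ± 1.03 on the log2 scale did not pass (exact permutation test, adjusted p = 0.971). That mean turned on CNLX15, where miR-148d had 174370 normalized reads and lay below miR-26a by a log2 difference of -2.84. Without CNLX15, miR-148d stood above miR-26a by 0.31 ± 0.41 (exact permutation test, p = 0.0469, adjusted p = 0.0781, 10 libraries), which did not pass either. MiR-27b, the next row below that is not miR-26c, was lower than miR-26a in 11 of 11 libraries, by 0.98 ± 0.40 on the log2 scale (adjusted p = 0.00488 by the exact permutation test). These orders hold for the counts as deposited, in which the level of miR-26a depends on how its shared reads were counted. The neighbours of each member were picked by mean level in these same libraries, which partly set the direction of each difference. The p-values for neighbours thus describe how evenly an order held over the libraries and are no independent test of it.

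MiR-26b, the paralog encoded in CTDSP1, was present at a far lower level. In Holstein its normalized read count was 77795 in CNLX1, 67481 in CNLX3, 97595 in CNLX5, 67651 in CNLX7 and 79229 in CNLX9. In Montbéliarde it was 65258 in CNLX13, 63227 in CNLX15, 72671 in CNLX17, 69138 in CNLX19, 81049 in CNLX21 and 53111 in CNLX23. CNLX15, the highest library for miR-26a, was the second lowest for miR-26b, and 3 of the 6 Montbéliarde libraries lay below all Holstein libraries while the other 3 lay among them. The Holstein mean was 77950 ± 12280 (SD, n = 5), and the Montbéliarde mean was 67409 ± 9416 (SD, n = 6). MiR-26b took 0.554% to 0.962% of the counted reads of a library.

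MiR-26b was the row of rank 20 by mean level. Of its neighbours, miR-127 (adjusted p = 0.714) and miR-30d (adjusted p = 0.173) above it did not differ from it beyond the spread between libraries in the same exact permutation tests. The mean log2 difference of miR-127 from miR-26b was 0.13 with CNLX15 and -0.021 without it (exact permutation test, adjusted p = 0.865). Below it, miR-186 was lower in 9 of 11 libraries by 0.43 ± 0.45 on the log2 scale (exact permutation test, adjusted p = 0.0269), and miR-92a was lower in 11 of 11 libraries by 0.61 ± 0.40 (adjusted p = 0.00488). MiR-26c, with levels from 230537 in CNLX9 to 624747 in CNLX15 and a median of 285263, took rank 7. Below it, miR-27b (adjusted p = 0.971) and miR-126-5p (adjusted p = 0.0570) did not pass the exact permutation test. MiR-148d stood above miR-26c by 1.02 ± 1.03 on the log2 scale, in 10 of 11 libraries (exact permutation test, adjusted p = 0.0293). The place of miR-26c, like that of miR-26a, depends on how shared reads were counted.

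**Figure D1:**
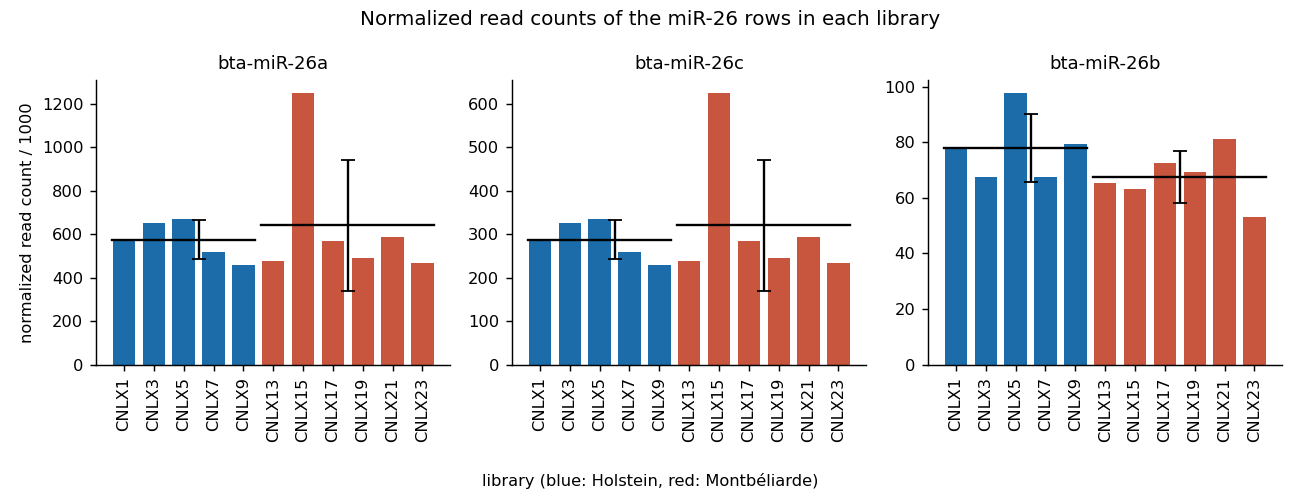
Normalized read count divided by 1000 (y axis, a separate scale for each row) of bta-miR-26a, bta-miR-26c and bta-miR-26b in each of the 11 libraries (x axis, blue Holstein, red Montbéliarde), with a black line at the breed mean and bars of 1 SD. The panels of miR-26a and miR-26c have the same shape, with CNLX15 at 1249505 and 624747, whereas miR-26b in CNLX15 is 63227.

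None of the 3 rows passed the test between the breeds. In edgeR's quasi-likelihood test over 550 miRNAs with Benjamini-Hochberg adjustment, miR-26a had a log2 fold change of 0.14, Montbéliarde over Holstein, with a standard error of 0.23, a 95% interval from -0.36 to 0.64 and an adjusted p of 0.819. For miR-26b the log2 fold change was -0.21 (SE 0.16, 95% interval from -0.55 to 0.12, adjusted p = 0.545). MiR-26c repeated miR-26a (0.14, SE 0.23, adjusted p = 0.819). Thus 0 of 3 members were called, where 2 of 550 miRNAs, 0.364%, were called in all. Before adjustment 78 of the 550 miRNAs had a p no larger than 0.05, none of them a member, and DESeq2 called 21 miRNAs and no member. The median log2 fold change over all 550 was 0.027.

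The interval of miR-26a covers a rise as well as a fall, and the sign of its estimate turned on CNLX15. Without that library the log2 fold change of miR-26a was -0.068 (SE 0.14, 95% interval from -0.37 to 0.23, edgeR adjusted p = 0.876) and that of miR-26b was -0.11 (SE 0.15, adjusted p = 0.812). The direction of miR-26a also turned, to -0.24 (SE 0.15, adjusted p = 0.576), when the epithelial marker level described below was added to the edgeR fit as a covariate, an alternative chosen after the data were seen. MiR-26b stayed lower in Montbéliarde in that fit, at -0.26 (SE 0.16, adjusted p = 0.576).

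The ratio of miR-26a to miR-26b counts needs no scaling between libraries. It was 7.44, 9.66, 6.89, 7.64 and 5.82 in the Holstein libraries CNLX1, CNLX3, CNLX5, CNLX7 and CNLX9. In the Montbéliarde libraries it was 7.34 in CNLX13, 19.8 in CNLX15, 7.85 in CNLX17, 7.08 in CNLX19, 7.27 in CNLX21 and 8.86 in CNLX23. All libraries other than CNLX15 thus lay within 5.82 to 9.66, and the breeds overlapped. With miR-26c in place of miR-26a the ratios were 2.91 to 9.88, so the size of the ratio depends on the counting rule while its pattern does not.

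The mean log2 ratio in Holstein was 2.89 ± 0.26 (SD, n = 5) and that in Montbéliarde 3.16 ± 0.57 (SD, n = 6). The difference was 0.28 (exact permutation test, two-sided, p = 0.424, smallest possible p = 0.00216). Without CNLX15 the difference was 0.051 (exact permutation test, p = 0.738). Together miR-26a and miR-26b took 6.68% ± 0.727 (SD, n = 5) of the counted Holstein reads and 7.07% ± 2.23 (SD, n = 6) of the Montbéliarde reads. The difference, Montbéliarde minus Holstein, was 0.392 percentage points (exact permutation test, p = 0.896) and -0.494 percentage points without CNLX15 (exact permutation test, p = 0.294).

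**Figure D2:**
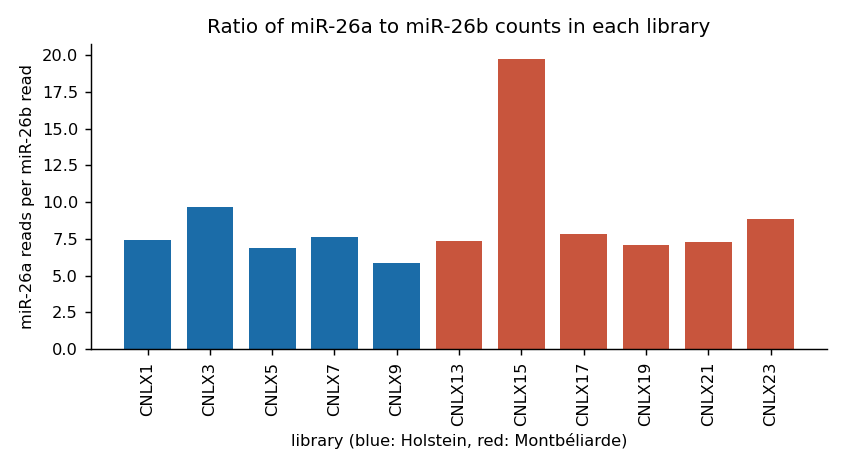
Counted miR-26a reads per counted miR-26b read (y axis) in each of the 11 libraries (x axis, blue Holstein, red Montbéliarde), 1 bar per library and no error bar. CNLX15 stands at 19.8, and the other 10 libraries lie between 5.82 and 9.66.

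Over the 11 libraries the levels of miR-26a and miR-26b showed no detectable relation on the log2 scale (Pearson r = 0.034, permutation p = 0.907, Spearman rho = 0.17, permutation p = 0.615). Within Montbéliarde, r was 0.023 over 6 libraries (exact permutation test, p = 0.953), and none was computed for the 5 Holstein libraries. Without CNLX15, r was 0.58 and rho 0.45 (permutation p = 0.0747 and 0.189, 10 libraries). Leaving out CNLX9 and CNLX15, the libraries farthest from the median of miR-26a, gave r = 0.75 (permutation p = 0.0142) and rho = 0.73 (permutation p = 0.0311). The coefficient near 0 over all libraries thus turned on CNLX15, in which miR-26a was 1.20 above the median of the other libraries on the log2 scale while miR-26b was at -0.16 against it.

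Lists of miRNAs that mark the cell types of a biopsy were set beside these levels. Of 7 epithelial names, 6 had a row in the table (miR-200a, miR-200b, miR-200c, miR-141, miR-429 and miR-205), and all 6 were counted in every library. The summed normalized read count of this list was 367535 to 466746 in Holstein and 180093 to 469496 in Montbéliarde, with 181193 in CNLX15. The list for fibroblasts and smooth muscle (miR-143, miR-145, miR-199a-3p, miR-199a-5p, miR-199b and miR-214) summed to 1513729 to 2305715 in Holstein, 1928358 to 3165341 in the other Montbéliarde libraries and 3870328 in CNLX15. By these sums CNLX15 was thus the highest library for the stromal list and next to the lowest for the epithelial list. By the mean log2 level, which the correlations use, it was the lowest for the epithelial list, at 13.6 against 13.9 in CNLX21. CNLX15 was also the highest for the leukocyte list (5 of 5 rows counted in every library). Its sum was 39422, against 18031 to 26952 in Holstein and 17229 to 33142 in the other Montbéliarde libraries. MiR-122 and the miR-124 rows, markers of liver and neurons, summed to at most 29 normalized reads in any library. In bulk tissue, fewer cells of a type cannot be told apart from less RNA per cell.

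MiR-26a moved with the fibroblast and smooth muscle list. Over the 11 libraries r was 0.90 (permutation p = 0.00304, adjusted p = 0.0426 over 14 relations) and rho was 0.82 (permutation p = 0.00320, adjusted p = 0.0448). Within Montbéliarde, r was 0.95 over 6 libraries (exact permutation test, p = 0.00139, adjusted p = 0.0194). Without the libraries farthest from the median of the list, CNLX15 and CNLX21, r was 0.71 (permutation p = 0.0372), and without CNLX15 alone it was 0.59 (permutation p = 0.0639, adjusted p = 0.542) with rho = 0.76. The direction was kept, but the adjusted value passed the threshold only with CNLX15 included.

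With the epithelial list miR-26a had r = -0.78 (permutation p = 0.0188, adjusted p = 0.0863) and rho = -0.55, and r = -0.31 without CNLX15 (permutation p = 0.417). With the leukocyte list it had r = 0.73 (permutation p = 0.0247, adjusted p = 0.0863), and r = 0.20 without CNLX15 (permutation p = 0.582). With the liver and neuron rows, at 0 to 29 normalized reads and not expected in this tissue, it had r = 0.67 (permutation p = 0.0193, adjusted p = 0.0863), the same adjusted p as with the epithelial and leukocyte lists, and r = 0.32 without CNLX15 (permutation p = 0.364). None of these 3 relations passed the adjustment, and all were weaker without CNLX15. The part of the cell types in the high miR-26a of CNLX15 was not tested.

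MiR-26b passed in none of its 7 relations. Its r was 0.038 with the epithelial list (permutation p = 0.903) and -0.049 with the fibroblast and smooth muscle list (permutation p = 0.868). The largest was 0.61 with the endothelial rows miR-126-3p and miR-126-5p (permutation p = 0.0432, adjusted p = 0.121), where rho was 0.43. The lists for red blood cells and skeletal muscle gave no adjusted p under 0.05 with either miRNA.

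**Figure D3:**
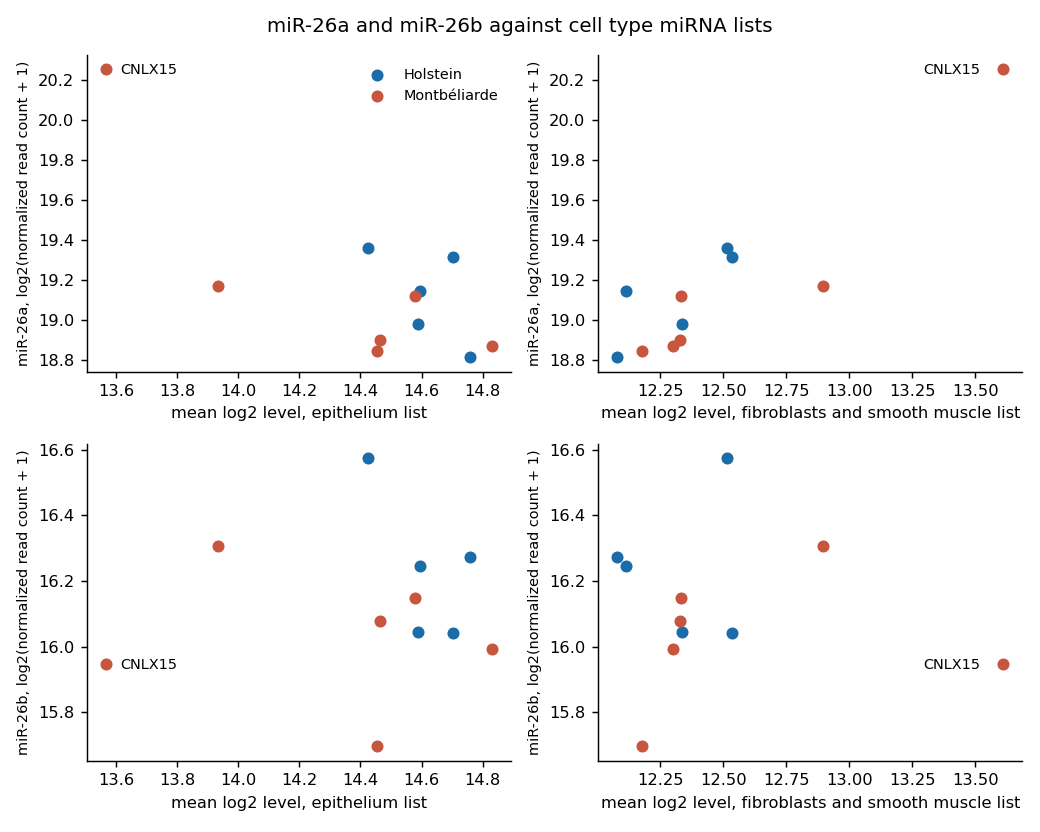
Level of miR-26a (upper panels) and miR-26b (lower panels) as log2(normalized read count + 1) against the mean log2 level of the epithelial list (left) and of the fibroblast and smooth muscle list (right), 1 point per library, blue Holstein and red Montbéliarde. CNLX15 is the point at the low end of the epithelial list and the high end of the stromal list, and it is high for miR-26a alone (r = 0.90 with the stromal list, 0.59 without CNLX15).

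The miRNAs whose levels ran most alike with each member over the 11 libraries were listed by Pearson r among 211 rows. These coefficients are descriptions, and all points share the same libraries. For miR-26a they were miR-361 (r = 0.90), miR-874 (0.89), miR-214 (0.89), miR-99a-5p (0.88) and miR-199a-5p (0.88). Each was highest in CNLX15, for example miR-361 at 1346 normalized reads against 607 to 964 elsewhere, and miR-214 at 667 against 107 to 253. Without CNLX15 the coefficients were 0.75, 0.72, 0.46, 0.59 and 0.51, so miR-361 and miR-874 stayed the closest of the 5. MiR-214 and miR-199a-5p are themselves in the fibroblast and smooth muscle list.

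For miR-26b the 5 closest were other miRNAs, namely miR-181b (r = 0.81), miR-16b (0.69), miR-194 (0.67), miR-194b (0.67) and miR-126-5p (0.67). Without CNLX15 the coefficients were 0.81, 0.71, 0.70, 0.64 and 0.65. Their rank correlations were lower, with rho = 0.55 for miR-181b and 0.29 for miR-194b. Levels of miR-26b, miR-181b, miR-16b, miR-194b and miR-126-5p were all lowest in Montbéliarde CNLX23, whereas miR-194 was lowest in CNLX15. Coefficients without CNLX23 were not computed.

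**Figure D4:**
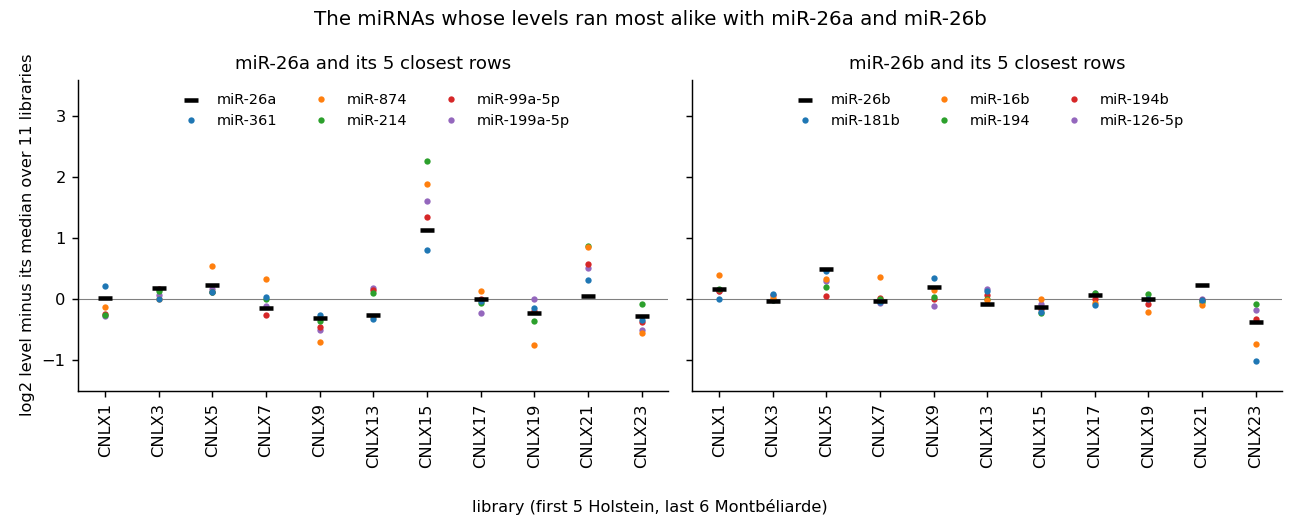
Log2 level minus its median over the 11 libraries (y axis) for miR-26a with its 5 closest miRNAs (left) and miR-26b with its own 5 (right), 1 mark per library (x axis, the first 5 Holstein, the last 6 Montbéliarde), black dashes for the member and coloured points for the others. In CNLX15 miR-26a and all its 5 companions lie above their medians. MiR-26b has its lowest mark in CNLX23, where miR-181b, miR-16b, miR-194b and miR-126-5p have theirs.

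The study normalized its RT-qPCR to the mean of 3 internal controls, miR-26a, miR-92a and miR-191. It had found them suitable with geNorm, which ranks controls by the stability of their expression. This makes the spread of miR-26a of practical interest, although an SD over sequencing libraries is a different measure. On the log2 scale the SD of miR-26a over the 11 libraries was 0.41, rank 121 from the least spread of 214 miRNAs, whose median SD was 0.38. With counts scaled by the library total in place of the size factors, the SD was 0.33 and the rank 77. On the normalized read counts the SD was 0.23 for miR-26b (rank 37), 0.23 for miR-92a (rank 34) and 0.40 for miR-191 (rank 117). Without CNLX15 the SD of miR-26a was 0.20 (rank 32, median of all 0.31), below that of miR-26b (0.23), miR-92a (0.24) and miR-191 (0.40). Within Holstein, where CNLX15 plays no part, miR-26a had an SD of 0.23 (rank 125) and miR-26b of 0.22 (rank 114), close to the median of 0.21. Within Montbéliarde the SD of miR-26a was 0.54 with CNLX15 and 0.15 without it.

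The other controls had larger estimated breed differences than miR-26a, and neither passed the test. The log2 fold change, Montbéliarde over Holstein, was 0.30 for miR-92a (SE 0.14, 95% interval from -0.0047 to 0.61, edgeR adjusted p = 0.348). For miR-191 it was -0.40 (SE 0.19, 95% interval from -0.80 to 0.0075, edgeR adjusted p = 0.348). Their signs are opposite, with 4 of 6 Montbéliarde libraries above all Holstein libraries for miR-92a and 4 of 6 below all for miR-191. Without CNLX15 the log2 fold change of miR-92a was 0.40 (95% interval from 0.11 to 0.69, edgeR adjusted p = 0.216). That of miR-191 was -0.44 (95% interval from -0.81 to -0.079, edgeR adjusted p = 0.239). Both intervals excluded 0 before adjustment, and neither miRNA passed after it. The log2 ratio of miR-26a to miR-92a had an SD of 0.52 over the 11 libraries and that to miR-191 one of 0.39. The ratio of miR-92a to miR-191 varied most, with an SD of 0.58. Averaged over its ratios to the other controls, the SD was 0.46 for miR-26a, 0.48 for miR-191 and 0.55 for miR-92a. Without CNLX15 these averages were 0.37, 0.47 and 0.50, so miR-26a had the lowest of the 3 either way. The mean log2 level of the 3 controls together had an SD of 0.21, was 17.7 in CNLX15 and 16.9 to 17.2 elsewhere, and differed between the breeds, Montbéliarde minus Holstein, by -0.023 (exact permutation test, p = 0.903). Without CNLX15 its SD was 0.12 and the breed difference was -0.13 (exact permutation test, p = 0.0952), so the value near 0 turned on that library. These are levels from sequencing, and the RT-qPCR values themselves were not analysed here.

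**Figure D5:**
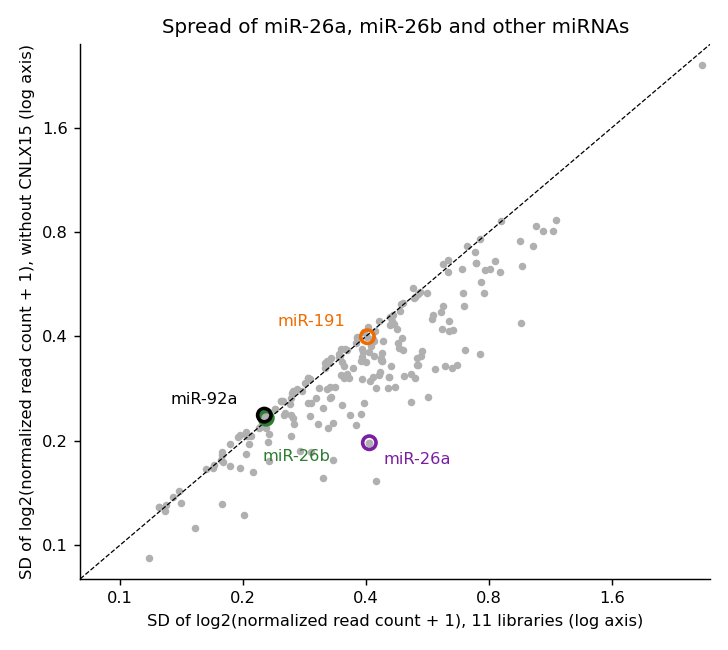
SD of log2(normalized read count + 1) over all 11 libraries (x axis, log scale) and over the 10 without CNLX15 (y axis, log scale), 1 grey point for each of the 214 miRNAs, circles for miR-26a, miR-26b, miR-92a and miR-191, and a dashed line where both are equal. MiR-26a falls from 0.41 to 0.20, whereas miR-26b, miR-92a and miR-191 lie close to the line.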

How the data were processed

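Per the study's methods, the authors trimmed adaptors from single-end reads, removed reads with ambiguous bases, filtered by size, and quantified miRNAs with ncPRO-seq and miRDeep2 against btau5.0.1 and miRBase. They deposited, for each mature miRNA in each library, the raw count and a signal, the normalized read count, which is that count divided by DESeq2 1.18.1 size factors. The authors' breed means, fold changes and p-values were not used. The members and lists were chosen with earlier results of these data known. The breed test was edgeR 4.0.16 under R 4.3.3 (TMM, robust glmQLFit, glmQLFTest) on miRNAs whose counts over all libraries summed to 10 or more, with Benjamini-Hochberg adjustment and a threshold of 0.05. DESeq2 1.42.0 and limma 3.58.1 were alternatives, and all were tested on simulated data. Values per library were compared by exact permutation, two-sided. Correlations used 100000 permutations on log2(normalized read count + 1). Within Montbéliarde and without the 2 farthest libraries, all permutations were used. Neighbours in level were compared by exact sign flips of the log2 ratio in each library, a test added after the design was set. They were picked by mean level in the libraries used for the test. Figures used matplotlib 3.10.9. Named rows were the members, the internal controls, the 2 rows above and below each member, the 5 rows most alike with miR-26a and with miR-26b, and the cell type lists. Rows that share a seed with a member were to be named too, but no miRNA sequences were used here. The labels match no Holstein cow with a Montbéliarde cow, so no pairing was used. The counts of a library summed to 6087865 to 16808976, with some reads counted more than 1 time.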

Additional observations from a re-analysis of the deposited data

Results flagged for a closer look

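In 28 combinations of a measure and a breed, a single library was compared with the rest of its breed, and 5 had a gap to the nearest library larger than Dixon's 95% limit for the group size. Chance gives about 1 in 20 such gaps. Montbéliarde CNLX15 gave 4 of them, which are not independent of each other: the normalized read count of miR-26a (1249505), that of miR-26c (624747), the ratio of miR-26a to miR-26b (19.8) and the share of counted reads on miR-26a and miR-26b (11.5%). MiR-26b was not among them. The last was the summed skeletal muscle list in Holstein CNLX3 (1805 normalized reads).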

How the results depend on the processing

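The breed difference of miR-26b kept its sign and stayed short of the threshold in 20 of 20 alternatives, and that of miR-26a in 18 of 20. The exceptions, shared by miR-26c, were -0.068 without CNLX15 and -0.24 with the epithelial level as a covariate, which was chosen after seeing the data. Without 1 library each, the log2 fold change of miR-26a and of miR-26c ran from -0.068 to 0.24. The number of miRNAs past the threshold was 2 in the main edgeR fit made here and 21 with DESeq2. It was 0 with DESeq2 size factors in edgeR (82 at an unadjusted p of at most 0.05). Without 1 library each it was 0 to 6 (60 to 99 unadjusted), and no member was called in any of these. The log2 ratio kept its sign in 13 of 13 alternatives. Without 1 library each, the difference in share ran from -0.494 to 0.733 percentage points, negative only without CNLX15. The SD of miR-26a ran from 0.20 (without CNLX15) to 0.43, and its rank moved from 121 to 77 with counts scaled by the library total and to 32 without CNLX15.

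The correlation of miR-26a with miR-26b was -0.0023 with TMM-scaled counts, 0.75 without the 2 farthest libraries, and -0.17 to 0.58 without 1 library each. The correlations with the marker lists changed sign 14 times, in each case without a passing value. Without CNLX15, chosen after seeing the data, miR-26a had r = 0.49 with the endothelial list and 0.099 with the red blood cell list, while miR-26b had -0.26 with the epithelial, 0.34 with the stromal and 0.18 with the leukocyte list. Without the 2 farthest libraries the red blood cell list gave 0.096 for miR-26a and 0.20 for miR-26b, and miR-26b had -0.095 with the epithelial, 0.23 with the stromal and 0.016 with the leukocyte list. Within Montbéliarde, miR-26b had -0.15, 0.19 and 0.17 with these 3 lists. With TMM-scaled counts it had -0.011 with the skeletal muscle list. Among the neighbours in level, miR-127 against miR-26b turned to -0.021 without CNLX15, also chosen after seeing the data. The causes were not tested. No paired analysis was made because the labels match no Holstein cow with a Montbéliarde cow.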
